A study of Mus musculus with 6 samples.

Results

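Leukocytes other than C1q-expressing macrophages were compared between old and young soleus muscle at 4-day reload, as old reload against young reload. A barcode was taken as a member if it held at least 200 genes, at most 10% mitochondrial UMIs (unique molecular identifiers, 1 per captured RNA molecule) and at most 1 UMI summed over C1qa, C1qb and C1qc. The rule gave 2058 members, 1117 of old reload and 941 of young reload, out of 4876 reload barcodes that passed the gene and mitochondrial filters and 15467 barcodes in the 6 libraries of the study. The other 1308 old reload barcodes and 1510 young reload barcodes that passed the filters held more than 1 C1q UMI. Doublet removal took 15 old reload and 16 young reload members, which left 1102 and 925 of them.

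Both groups were male C57BL/6 mice that underwent 14 days of hindlimb unloading (HU) and then 4 days of reloading in individual cages. Old mice were 20 to 22 months of age and young mice 4 to 5 months. The paper lists the National Institute on Aging for the old mice and a University of Utah core for the young mice. Age and source of the mice can therefore not be told apart here. Solei of 10 old mice and of 10 young mice were pooled before CD45+ DAPI− cells were sorted, so each age was 1 library, and mice could not be told apart. The titles of both libraries carry the same project number. With 1 pooled library a side there was no replicate and no test, and intervals given below are exact 95% intervals that cover counting error only. Ambulatory control and HU libraries were not compared here.

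The old reload library held 17217962 UMIs and the young reload library 22749375 UMIs. More than 10% mitochondrial UMIs were found in 17.4% of old reload barcodes and in 33.3% of young reload barcodes, and the part of this difference in the results below was not tested. The median member held 4158.5 UMIs in old reload and 7267 UMIs in young reload. Within classes the medians were closer, at 1431 and 1150 UMIs for old and young reload neutrophil-like cells, 5683 and 6097.5 for monocyte-like cells, 10340.0 and 11601.5 for dendritic-like cells, 2714 and 3058.5 for T-like cells and 2146 and 2710.0 for B-like cells. The libraries shared 12 barcode sequences, 1 of them among the members.

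C1q is a complement component made by tissue macrophages, so the C1q limit removes most macrophages. It also removed part of the monocytes and dendritic cells, unequally in the 2 libraries, as given below. Neutrophils are short-lived phagocytes that enter injured muscle first and carry antimicrobial granules and S100a8 and S100a9. Monocytes follow from the blood, as classical Ly6c-high cells that turn into macrophages and as non-classical cells that patrol vessel walls. Dendritic cells take up antigen and carry it to T cells on MHC class II, with a type 1 lineage that expresses Xcr1 and Clec9a and a type 2 lineage that expresses Cd209a or Mgl2. T cells and B cells are the lymphocytes of adaptive immunity.

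Clusters were named from marker genes and joined into classes, and "-like" marks that the name rests on RNA alone. The neutrophil-like cluster had 13 of 14 markers detected and was led by S100a8, S100a9 and Retnlg. There were 3 monocyte-like clusters, led by Chil3 and F13a1 (12 of 20 monocyte markers detected), by Ace and Eno3 (9 of 20) and by Ifit2, Rsad2 and other genes that interferon induces (10 of 20, none among its leading genes). The 4 dendritic-like clusters were led by Clec9a and Xcr1, by Cd209a and Ccr7, by Retnla and Mgl2, and by cell cycle genes, with 9, 13, 8 and 6 of 23 dendritic cell markers detected. T-like cells formed a cluster with Cd3d and Cd8b1 and a small one with Trdc and Il17a, and the B-like cluster had 15 of 15 markers. The data went against the label "non-macrophage" for 107 old reload and 185 young reload members, which formed a macrophage-like cluster with 10 of 18 macrophage markers and at most 1 C1q UMI a cell, and these cells entered none of the gene comparisons. That name depended on the clustering. With all kept barcodes clustered together, 47 old reload and 46 young reload members were named macrophage-like. Monocyte-like members were then 305 in old reload and 223 in young reload, against 248 and 88 in the main clustering.

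Neutrophil-like, monocyte-like, T-like and B-like cells took larger shares of the members in old reload than in young reload, and dendritic-like cells a smaller share. Neutrophil-like cells were 190 of 1102 members in old reload (17.2%, exact 95% interval 15.1 to 19.6%) and 49 of 925 in young reload (5.30%, 3.94 to 6.94%), a difference of 11.9 percentage points (Newcombe interval 9.27 to 14.6). Monocyte-like cells were 248 members in old reload (22.5%, 20.1 to 25.1%) and 88 in young reload (9.51%, 7.70 to 11.6%), or 12.99 points more in old reload (9.85 to 16.1). With all kept barcodes clustered together before the C1q limit was applied, monocyte-like cells were 27.7% of the members in old reload and 24.1% in young reload, a difference of 3.57 points whose interval includes 0 (-0.27 to 7.36). Dendritic-like cells were 263 members in old reload (23.9%, 21.4 to 26.5%) and 372 in young reload (40.2%, 37.0 to 43.5%), a difference of -16.4 points (-20.4 to -12.3). T-like cells were 103 members in old reload (9.35%, 7.69 to 11.2%) and 58 in young reload (6.27%, 4.80 to 8.03%), a difference of 3.08 points (0.718 to 5.40), which was 1.70 points (-0.595 to 3.95) with a gate on the markers of each cell and 2.58 points (-0.014 to 5.10) with 0 C1q UMIs allowed. B-like cells were 74 members in old reload (6.72%, 5.31 to 8.36%) and 15 in young reload (1.62%, 0.910 to 2.66%), a difference of 5.09 points (3.41 to 6.85).

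**Figure D1:**
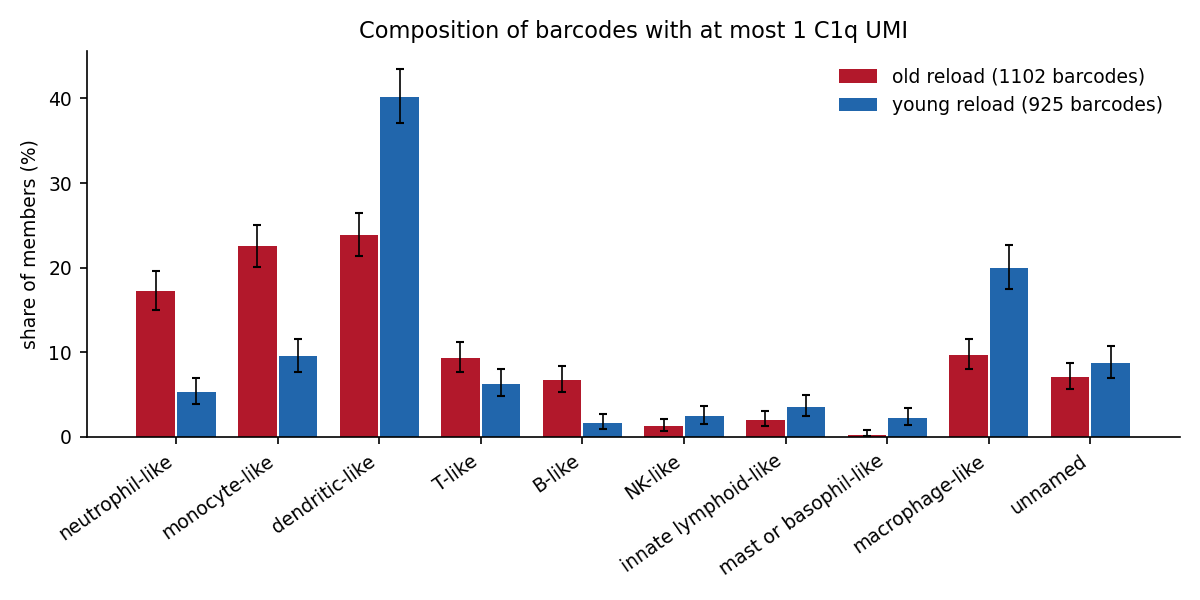
Share of the members in each class, in % of 1102 old reload (red) and 925 young reload (blue) barcodes, with exact 95% binomial intervals that cover counting error only. Neutrophil-like cells stand at 17.2% in old reload and 5.30% in young reload, and dendritic-like cells at 23.9% in old reload and 40.2% in young reload.

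These shares are shares of sorted barcodes under the C1q limit and not numbers of cells per muscle. With the same members set against all kept reload barcodes as the denominator, C1q-expressing cells included, neutrophil-like members were 8.03% in old reload and 2.08% in young reload, monocyte-like members 10.5% and 3.74%, dendritic-like members 11.1% and 15.8%, T-like members 4.36% and 2.46%, and B-like members 3.13% and 0.637%. The limit itself touched the classes unequally. When all kept barcodes were clustered together, 178 of 483 monocyte-like cells in old reload and 314 of 537 in young reload held more than 1 C1q UMI. Counted with those over the limit, monocyte-like cells were 20.4% of all kept barcodes in old reload and 22.8% in young reload, a difference of -2.38 points (-4.73 to -0.031), so their larger share in old reload was not found without the limit. Of dendritic-like cells, 206 of 467 in old reload and 156 of 523 in young reload were over the limit, and with them the class was 19.7% of all kept barcodes in old reload and 22.2% in young reload (-2.46 points, -4.78 to -0.138). The limit removed almost no neutrophil-like cells (3 of 193 in old reload and 0 of 49 in young reload), T-like cells (1 of 104 and 2 of 61) or B-like cells (0 of 74 and 0 of 15).

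RNA from broken cells adds UMIs to every droplet, and its level was read from transcripts of other classes. S100a8 stood at 13.02 CPM (the UMIs of a gene per 1000000 UMIs of that class in that library) in monocyte-like cells of old reload and at 0 in those of young reload, at 4.53 and 3.71 CPM in dendritic-like cells and at 9.06 and 0 CPM in T-like cells. Lyz2, the lysozyme of myeloid cells, had a UMI in 15.5% of T-like cells in old reload and 17.2% in young reload, against 99.6% and 96.6% of monocyte-like cells. A share of cells near that of T-like cells may therefore be background for an abundant myeloid transcript. Empty droplets were not measured, so free RNA was not told apart from remaining doublets or misplaced cells.

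Old reload neutrophil-like cells held more of the alarmins S100a8 and S100a9 and more of several interferon-stimulated genes than young reload cells, and less of the chemokines and cytokines under NF-kB. Levels are CPM over all cells of the class (292365 UMIs in old reload and 58602 in young reload). A gene counted as measured with at least 50 UMIs over both libraries and as called at 1.5-fold or more, which is a limit on size with no p-value behind it. Old reload held most UMIs of this class, so a gene could be measured mainly through old reload. Counts of called genes can therefore lean towards higher in old reload. Old reload also held more UMIs in monocyte-like and T-like cells, and young reload more in dendritic-like cells as a whole. Of 946 measured genes, 13.3% were at least 1.5-fold higher in old reload and 13.4% at least 1.5-fold lower. That balance depended on the scaling. Of the genes called, 49.8% were higher in old reload with CPM, 88.2% with TMM factors and 87.7% with mean UMIs per cell, and the median log2 ratio of all measured genes was -0.08 with CPM, 0.29 with TMM and 0.28 with mean UMIs per cell. Ratios of this class below are with CPM unless another scaling is named.

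S100a8 and S100a9 (both on chromosome 3) form calprotectin, a protein of the neutrophil cytosol that acts as a danger signal. S100a8 stood at 70713 CPM in old reload and 43104 CPM in young reload, with a UMI in 190 of 190 and 46 of 49 cells. S100a9 stood at 84925 CPM in old reload and 57472 CPM in young reload. The log2 ratios were 0.71 (0.65 to 0.77) for S100a8 and 0.56 (0.51 to 0.62) for S100a9, the second just under 1.5-fold. Of the list of alarmins and their relatives, 2 of 6 measured members were at least 1.5-fold higher (S100a8 and S100a6) and none lower.

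The gene with the largest ratio was Myadm, a membrane protein of the myeloid lineage (GRCm38 chromosome 7, 3289080 to 3300442). It had 110 UMIs in 77 of 190 old reload cells and 3 UMIs in 3 of 49 young reload cells, a log2 ratio of 2.88 with a wide interval (1.29 to 5.18). Wfdc17, a small secreted protein of the WAP family, stood at 3704 CPM in old reload and 1212 CPM in young reload (log2 1.61, 1.26 to 1.98). Lrg1, a glycoprotein stored in neutrophil granules, stood at 845 CPM in old reload and 341 CPM in young reload (1.31, 0.65 to 2.04). Adgre5, the adhesion receptor CD97, had nearly the same levels (841 and 341 CPM, log2 1.30). Akap13, a kinase-anchoring protein, and Flna, the actin crosslinker filamin A, had log2 ratios of 1.54 (0.51 to 2.79) and 1.47 (0.38 to 2.83), on 8 and 7 UMIs in young reload.

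Genes of the granule list stood on both sides. Of 8 measured members, 3 were at least 1.5-fold higher in old reload and 2 lower, and the median log2 ratio was 0.30. Wfdc21 (1666 and 768 CPM in old and young reload, log2 1.12) and Lcn2, the siderophore-binding lipocalin (1050.1 and 648 CPM, 0.70), were among the higher. Arg2, an arginase of mitochondria rather than granules, was at 465 CPM in old reload and 921 CPM in young reload (log2 -0.99, -1.45 to -0.50). Mmp8, the neutrophil collagenase, was at 246 CPM in old reload and 375 CPM in young reload (-0.61, -1.31 to 0.15), and its interval includes 0. Receptors that mark mature neutrophils differed little. Csf3r, the receptor for G-CSF, stood at 2199 CPM in old reload and 2116 CPM in young reload, and Cxcr2, the receptor for CXC chemokines, at 941 and 683 CPM (log2 0.46, -0.02 to 0.98). Of 7 measured glycolysis genes none was 1.5-fold higher and 1 lower, Ldha, with a log2 ratio of -0.59.

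Cytokine and NF-kB genes stood lower. Of 27 measured members of the list of inflammatory cytokine and NF-kB genes, 10 were at least 1.5-fold lower in old reload and 1 was higher, with a median log2 ratio of -0.27 that became 0.10 with TMM factors, still below the median of all genes under that scaling. Cxcl2, a chemokine that draws further neutrophils through Cxcr2 (chromosome 5, 90903871 to 90905938), stood at 2079.6 CPM in old reload and 6279.6 CPM in young reload, with a UMI in 45.8% and 69.4% of cells. Its log2 ratio was -1.59 (-1.78 to -1.40). Nfkbia, the NF-kB inhibitor that NF-kB itself induces, stood at 1139 CPM in old reload and 2304 CPM in young reload (log2 -1.02, -1.31 to -0.72). Ccrl2, a receptor that presents chemerin, had 356 CPM in old reload and 1621 CPM in young reload (-2.19, -2.60 to -1.77). Smaller counts pointed the same way for Osm (-1.67), Ccl3 (-1.66, and -0.56 without doublet removal), Csf1 (-1.63), Nlrp3 (-0.99) and Il1rn (-0.94), which encode oncostatin M, a chemokine, a macrophage growth factor, an inflammasome sensor and the interleukin-1 receptor antagonist.

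A few cells carried some of these values. Ccl4 had the lowest ratio of the class, -3.64 (-4.02 to -3.26), at 284 CPM in old reload and 3532 CPM in young reload, but 1 young reload cell held 66.7% of the Ccl4 UMIs there. Without the cell with most UMIs in each library the ratio was -2.49 for Ccl4 and -1.38 for Cxcl2. Il1b, which encodes interleukin-1 beta, was nearly level, with 6331 CPM in old reload and 7252 CPM in young reload (log2 -0.20, -0.35 to -0.04, and 0.17 with TMM factors). Other lower genes were Thbs1, the matrix protein thrombospondin 1 (889 and 2287 CPM in old and young reload, -1.36), Ctsd, the lysosomal protease cathepsin D (643 and 1433 CPM, -1.16) and Cdkn1a, the cell cycle inhibitor p21 (363 and 785 CPM, -1.11).

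**Figure D2:**
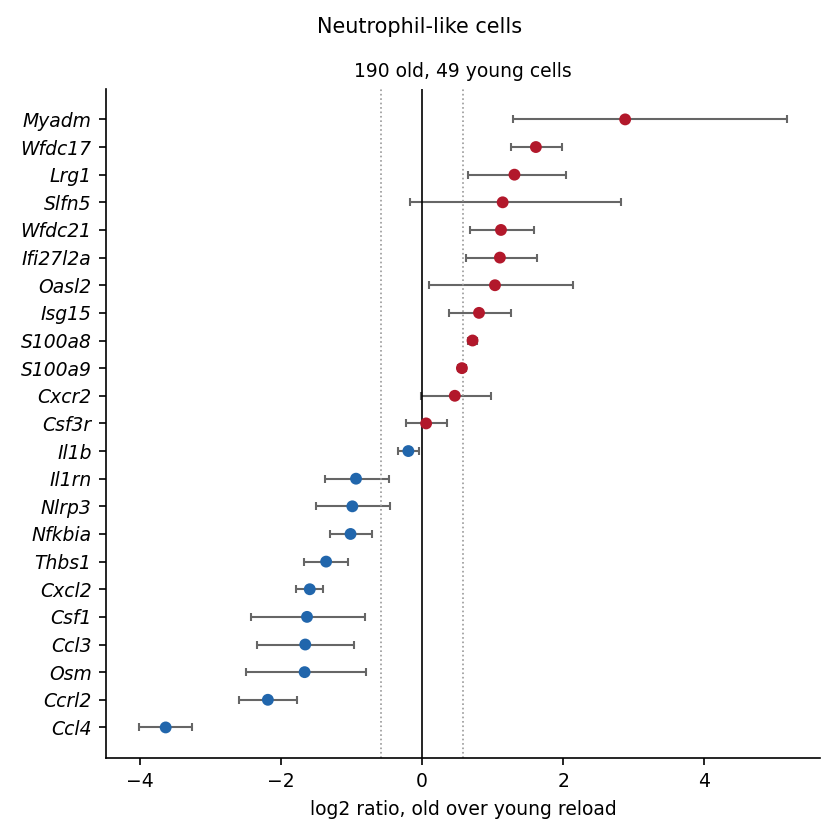
Log2 ratio of old over young reload in neutrophil-like cells (190 old and 49 young reload cells), with exact 95% intervals that cover counting error only. Red points are above 0 and blue points below, and dotted lines mark 1.5-fold. Myadm lies at 2.88 and S100a8 at 0.71, and Cxcl2 lies at -1.59 and Ccl4 at -3.64.

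Markers of other cells were present in the neutrophil-like class at low levels. The 18 macrophage markers, of which 17 were seen and Vsig4 was at 0, summed to 1594 CPM in old reload and 1860.0 CPM in young reload. The 23 dendritic cell markers summed to 763 CPM in old reload and 1075 CPM in young reload, with 16 of them at 0, Flt3, Zbtb46, Cd209a, Xcr1 and Clec9a included. Their part in the ratios was not tested.

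Interferon response genes stood higher in old reload neutrophil-like cells. They are switched on when type I or II interferon binds its receptor on the cell. Of 21 measured members, 11 were at least 1.5-fold higher in old reload and 1 was lower, with a median log2 ratio of 0.59 against -0.08 for all measured genes. Old reload held 292365 UMIs of the class and young reload 58602, so the limit of 50 UMIs lets in genes high in old reload more easily. The count of members can lean that way. Isg15, a ubiquitin-like modifier, stood at 1491 CPM in old reload and 853 CPM in young reload, with a UMI in 87 of 190 and 10 of 49 cells (log2 0.81, 0.38 to 1.26). A single young reload cell held 50% of the Isg15 UMIs there, and the ratio was 1.67 without the cell with most UMIs in each library. Ifi27l2a stood at 1392 CPM in old reload and 648 CPM in young reload (1.10, 0.62 to 1.62), and Oasl2, of the oligoadenylate synthetase family, at 349 and 171 CPM (1.03, 0.09 to 2.13). Slfn5, a Schlafen protein, stood at 188 CPM in old reload and 85.3 CPM in young reload (1.14, -0.17 to 2.82), and its interval includes 0. It had 55 UMIs in old reload and 5 in young reload, so it was measured through its old reload count. The exception was Ifit3 (-0.77, -1.71 to 0.26), whose 13 young reload UMIs all came from 1 cell. Without the cell with most UMIs in each library it stood at 0.99.

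The interferon-stimulated response element reads GAAANNGAAA or its complement, and promoters of 3 genes are shown because these genes stood higher in old reload neutrophil-like cells (Isg15 and Slfn5) or in the classical monocyte-like cluster (Isg15 and Gbp2). Each runs 5′ to 3′ on the strand of its gene, from 250 bases before the start to 50 bases after, in RefSeq on GRCm38.p6. Capitals mark matches to the motif on either strand, with overlapping matches joined. The window is chr4:156200769-156201068 on the minus strand for Isg15 (3 matches), chr11:82951852-82952151 on the plus strand for Slfn5 (1 match) and chr3:142620413-142620712 on the plus strand for Gbp2 (1 match, on the opposite strand).
Isg15: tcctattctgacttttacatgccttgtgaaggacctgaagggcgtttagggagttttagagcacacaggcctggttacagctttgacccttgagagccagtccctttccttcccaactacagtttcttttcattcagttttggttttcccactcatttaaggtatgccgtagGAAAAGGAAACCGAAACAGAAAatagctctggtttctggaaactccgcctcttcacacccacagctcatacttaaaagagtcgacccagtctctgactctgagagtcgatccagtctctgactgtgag
Slfn5: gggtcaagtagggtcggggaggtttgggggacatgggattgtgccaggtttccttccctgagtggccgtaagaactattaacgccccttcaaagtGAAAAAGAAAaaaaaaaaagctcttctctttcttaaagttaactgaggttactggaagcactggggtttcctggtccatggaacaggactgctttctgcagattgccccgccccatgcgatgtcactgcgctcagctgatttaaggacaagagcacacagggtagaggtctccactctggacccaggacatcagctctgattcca
Gbp2: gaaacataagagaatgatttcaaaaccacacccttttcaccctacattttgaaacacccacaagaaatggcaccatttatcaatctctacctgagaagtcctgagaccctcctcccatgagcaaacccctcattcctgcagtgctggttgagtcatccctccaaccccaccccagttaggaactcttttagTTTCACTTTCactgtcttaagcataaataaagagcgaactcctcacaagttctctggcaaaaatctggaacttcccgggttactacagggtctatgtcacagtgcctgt
The motif was found on either strand in 28 of the 52 interferon response gene promoters in the table (53.9%), and in 1131 of all 32851 promoters of that length (3.44%). It was found in 3 of 8 promoters of the interferon response genes that stood at least 1.5-fold higher in old reload neutrophil-like cells and in 7 of 12 of those that did so in the classical monocyte-like cluster. A match describes the letters of the window and does not show that a factor was bound.

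Among monocyte-like cells of the main clustering, the non-classical cells led by Ace and Eno3 took a larger share in old reload and the interferon-led cells a smaller one. The Ace and Eno3 cluster held 83 of 248 monocyte-like cells in old reload (33.5%) and 14 of 88 in young reload (15.9%), a difference of 17.6 points (Newcombe interval 6.93 to 26.2). The Ifit2 and Rsad2 cluster held 16 cells in old reload (6.45%) and 20 in young reload (22.7%), a difference of -16.3 points (-26.4 to -7.88). The Chil3 and F13a1 cluster of classical monocyte-like cells held 149 cells in old reload (60.1%) and 54 in young reload (61.4%). When the leading genes that differed between the libraries were left out of the clustering, the Ace and Eno3 cluster held 82 and 14 cells in old and young reload and the interferon-led cluster 18 and 21.

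**Figure D3:**
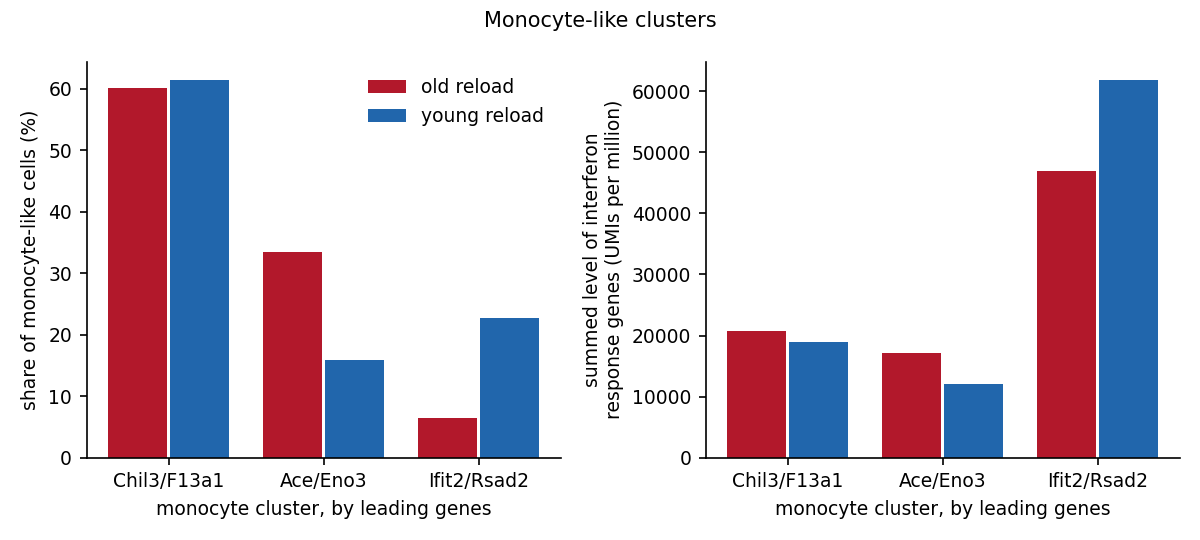
Left, share (%) of old reload (red, 248 cells) and young reload (blue, 88 cells) monocyte-like cells in each of 3 clusters. Right, summed level of the 67 interferon response genes in CPM. The Ace and Eno3 cluster takes 33.5% in old reload and 15.9% in young reload, and the Ifit2 and Rsad2 cluster, with the highest summed level, 6.45% in old reload and 22.7% in young reload.

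Genes of non-classical monocytes stood higher in the whole monocyte-like class in old reload. Of 3935 measured genes, 9.17% were at least 1.5-fold higher in old reload and 9.83% at least 1.5-fold lower. Of the genes called, 48.3% were higher with CPM and 59.7% with mitochondrial, ribosomal and haemoglobin genes left out of the total. Of 14 measured non-classical monocyte genes, 11 were at least 1.5-fold higher in old reload and none lower, with a median log2 ratio of 0.87 against -0.00 over all measured genes. Ace, the angiotensin-converting enzyme, stood at 269 CPM in old reload and 112 CPM in young reload (log2 1.26, 0.86 to 1.68). Eno3, an enolase (102 and 36.2 CPM), and Spn, the sialophorin CD43 (92.5 and 30.5 CPM), had log2 ratios of 1.496 (0.80 to 2.27) and 1.602 (0.85 to 2.45), and Spn stood at 0.19 when cells were thinned to 1000 UMIs. Within the Ace and Eno3 cluster, Ace was at 1096 CPM in old reload and 1003 CPM in young reload, and Spn had a log2 ratio of 0.26 (-0.53 to 1.15) there.

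Other genes higher in the class were integrins and inhibitory receptors. Itgal, the integrin alpha L chain, stood at 345 CPM in old reload and 156 CPM in young reload (log2 1.15, 0.81 to 1.5), and Itga4, the integrin alpha 4 chain, at 313 and 143 CPM (1.13, 0.78 to 1.505). Lair1 (1.49, and 0.11 with all kept barcodes clustered together) and Ceacam1 (1.45), both inhibitory receptors, and Smpdl3b (1.43), a membrane phosphodiesterase, were also among the highest. Within the Ace and Eno3 cluster Itgal stood at 0.33 (-0.16 to 0.85) and Itga4 at 0.65 (-0.02 to 1.39). Ceacam1 stood at 0.85 (-0.13 to 2.03) there and Lair1 at 1.47 (0.19 to 3.13). In the Chil3 and F13a1 cluster Itgal stood at 0.79 (0.29 to 1.32) and Itga4 at 0.90 (0.41 to 1.42). Ceacam1 and Lair1 were both at 0.63 there, with intervals that include 0. The largest ratio of the class was that of Ly6i, at 183 CPM in old reload and 34.3 CPM in young reload (2.42, 1.73 to 3.19), and most of its UMIs came from the Ace and Eno3 cluster, at 701 CPM in old reload and 100 CPM in young reload there. Ly6a stood the other way, at 163 CPM in old reload and 1402 CPM in young reload (-3.10, -3.32 to -2.89). Ly6i, Ly6a and Ly6c2 are closely related neighbours on chromosome 15, reads can be split among them, and their ratios are uncertain.

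Interferon response genes of the whole class stood lower in old reload, but not without its interferon-led cluster. Of 58 measured members 33 were at least 1.5-fold lower in old reload and none higher, with a median log2 ratio of -0.79. Without the Ifit2 and Rsad2 cluster the median was 0.38. Irf7, the transcription factor that amplifies type I interferon, stood at 336 CPM in old reload and 1543 CPM in young reload (-2.20, -2.37 to -2.04). Isg15 stood at 514 CPM in old reload and 1172 CPM in young reload (-1.19, -1.34 to -1.03), and its ratio without that cluster was 1.06. Cxcl10, a chemokine for T cells, had 89 UMIs in 15 of 248 old reload cells and 161 UMIs in 15 of 88 young reload cells (-2.33, -2.72 to -1.95, with 52.8% of the old reload UMIs in 1 cell). Without the cluster Cxcl10 stood at 1.33 (-1.52 to 6.79), on 9 UMIs in old reload and 1 in young reload. With the cell with most UMIs in each library left out too it was -0.87, against the floor of 3 counts in young reload. Its direction outside the cluster was therefore not settled. Ifitm1 (-2.44) and Slfn4 (-2.51, and -0.49 without the cluster) were among the 6 lowest named genes of the class.

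Within the Chil3 and F13a1 cluster the interferon response genes stood higher in old reload. Of 2982 genes measured there, 9.46% were at least 1.5-fold higher in old reload and 6.61% at least 1.5-fold lower. Of the genes called, 58.9% were higher with CPM, 69.5% with TMM factors and 89.2% with mean UMIs per cell, where the median of all genes was 0.23 against 0.00 with CPM. Of 37 measured interferon response genes, 16 were at least 1.5-fold higher and 2 lower (Ifitm1 and Irf7), with a median log2 ratio of 0.41. Isg15 stood at 301 CPM in old reload and 122 CPM in young reload (1.30, 0.82 to 1.82). Gbp2, a guanylate-binding GTPase, stood at 97.7 CPM in old reload and 37.5 CPM in young reload (1.38, 0.51 to 2.38). Of 18 measured genes of MHC class I presentation, 5 were higher and none lower. Tap1, which carries peptides into the endoplasmic reticulum, stood at 121 CPM in old reload and 43.8 CPM in young reload (1.47, 0.66 to 2.38).

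That direction depended on the clustering. With resolution 0.4 or with 0 C1q UMIs allowed, the interferon-led cells joined this cluster, and Isg15 stood at -1.29 and -1.44 and Gbp2 at -0.22 and -0.15 in these settings. Clusters were formed on genes that include these, so the clusters and these levels are not independent. The summed level of the 67 interferon response genes was 20728 CPM in old reload and 18983 CPM in young reload in the Chil3 and F13a1 cluster, 17164 and 12118 CPM in the Ace and Eno3 cluster and 46933 and 61758 CPM in the Ifit2 and Rsad2 cluster.

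**Figure D4:**
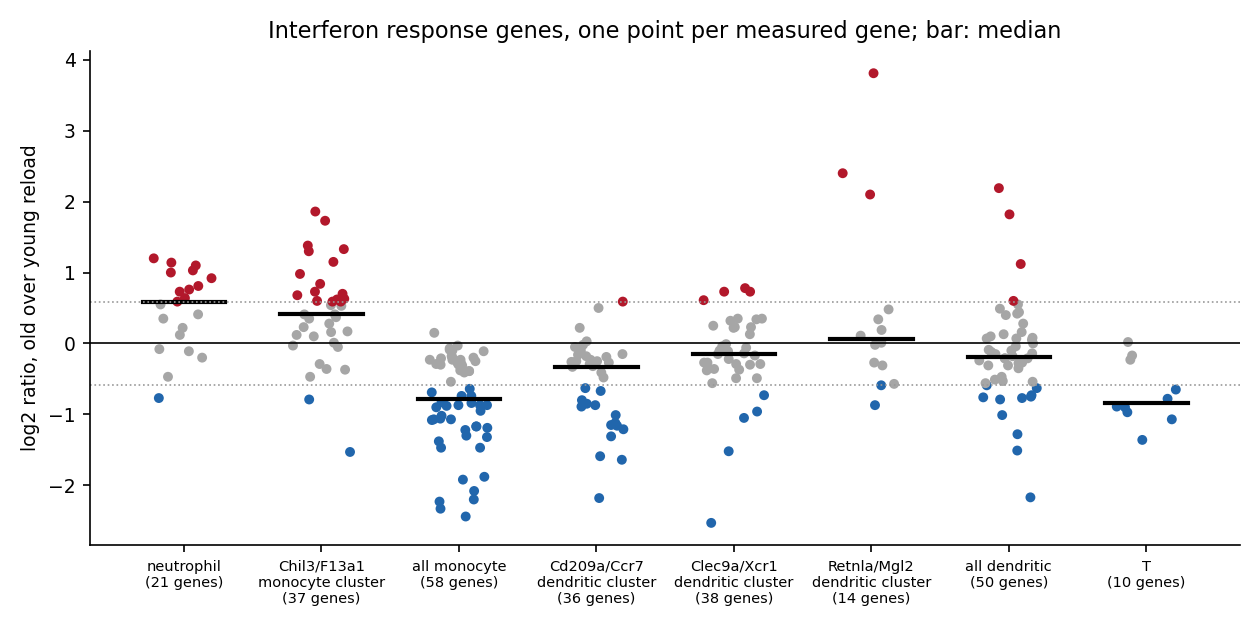
Log2 ratio of old over young reload for each measured interferon response gene, by class or cluster, with the median as a bar. Red points are at least 1.5-fold higher in old reload and blue points at least 1.5-fold lower. Medians are 0.59 in neutrophil-like cells and 0.41 in the Chil3 and F13a1 cluster, and -0.79 in all monocyte-like cells and -0.83 in T-like cells.

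MHC class II genes stood lower in old reload in the monocyte-like cells as a whole and in the Chil3 and F13a1 cluster, but not in the other 2 monocyte-like clusters. Of 8 measured members 5 were at least 1.5-fold lower in the class and none higher, with a median log2 ratio of -0.62, and in the Chil3 and F13a1 cluster 4 of 8 were lower. Cd74, the invariant chain, stood at 9628 CPM in old reload and 14776 CPM in young reload (-0.62, -0.66 to -0.58), and H2-DMb1, a peptide loader, at 265 and 592 CPM (-1.16, -1.38 to -0.94). In the Chil3 and F13a1 cluster Cd74 was at 6606 CPM in old reload and 10300.0 CPM in young reload (-0.64), and 17.0% of its young reload UMIs were in 1 cell. With all kept barcodes clustered together its ratio in that cluster was 0.056 and that of H2-Aa 0.067. In the Ace and Eno3 cluster the direction was the other, with Cd74 at 11078 CPM in old reload and 2067 CPM in young reload, on 14 young reload cells. In the Ifit2 and Rsad2 cluster Cd74 was level (0.066) and H2-Aa higher in old reload (0.37, 0.26 to 0.48), and the 16 class II genes summed to 58835 CPM in old reload and 53823 CPM in young reload, more than in the other monocyte-like clusters. That cluster held 16 of 248 monocyte-like cells in old reload and 20 of 88 in young reload. The dendritic cell markers, which include Cd74, summed to 11764 CPM in old reload and 18243 CPM in young reload in the class, with 18 of 23 seen and Xcr1, Fscn1, Ccl22, Siglech and Cd209d at 0, and the macrophage markers to 2704 and 3875 CPM, with 16 of 18 seen. Their part was not tested.

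Chemokine receptors of monocyte-like cells went both ways. Of 18 measured chemokine receptor and adhesion genes 4 were at least 1.5-fold higher in old reload and 3 lower, with a median log2 ratio of 0.13. Ccr1, a receptor for Ccl3 and Ccl5, stood at 74.0 CPM in old reload and 265 CPM in young reload (-1.84, -2.21 to -1.47), and its ratio in the Chil3 and F13a1 cluster was -1.69. Ccr2, which guides classical monocytes out of marrow, differed less, at 407 CPM in old reload and 522 CPM in young reload (-0.36). Cx3cr1, the fractalkine receptor of non-classical monocytes, stood higher, at 99.4 CPM in old reload and 60.96 CPM in young reload (0.71, 0.14 to 1.305). Of 15 measured glycolysis genes 3 were at least 1.5-fold lower and 1 higher. Ldha, which makes lactate, stood at 439 CPM in old reload and 794 CPM in young reload (-0.86, -1.04 to -0.68), and Tpi1, triosephosphate isomerase, at 96.6 and 253 CPM (-1.39, -1.74 to -1.04). Gapdh stood at 1739 CPM in old reload and 2152 CPM in young reload (-0.31). Of 48 measured cytokine and NF-kB genes 14 were lower and 5 higher, and Il1b stood at 1436 CPM in old reload and 1558 CPM in young reload (-0.12, -0.23 to 0.00).

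Dendritic-like cells held the most UMIs per cell of the classes, and their lineage and MHC class II genes were close to level. Of 7076 measured genes, 4.79% were at least 1.5-fold higher in old reload and 5.77% at least 1.5-fold lower. Of the genes called, 45.4% were higher with CPM and 15.2% with mean UMIs per cell, where the median of all genes was -0.22 against -0.04 with CPM. The genes that mark the type 1 lineage were level, with none of 14 measured members past 1.5-fold and a median log2 ratio of -0.16. Clec9a, a receptor for dead cells, stood at 95.7 CPM in old reload and 127 CPM in young reload (-0.41), and Xcr1 at 29.9 and 27.5 CPM (0.12). MHC class II genes differed little, with Cd74 at 41903 CPM in old reload and 44816 CPM in young reload (-0.10) and 1 of 13 measured members past 1.5-fold, the protease Lgmn (-0.87).

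The largest ratios of the class came from the Retnla and Mgl2 cluster, which held 64 of 263 dendritic-like cells in old reload (24.3%) and 50 of 372 in young reload (13.4%), a difference of 10.9 points (4.75 to 17.2). With leading genes that differed left out of the clustering it held 63 and 47 cells. With all kept barcodes clustered together, 44.1% of old reload and 29.8% of young reload dendritic-like cells were over the C1q limit. The share of this cluster with those cells counted was not tested. The name of the cluster rests on 8 detected dendritic cell markers, of which 1, Mgl2, was among its leading genes, beside the macrophage marker Cd163. Its leading genes included Retnla, a secreted protein induced by interleukin-4, Lpl, lipoprotein lipase, and Mmp12, the macrophage elastase. Retnla (chromosome 16, 48842551 to 48844461) had 5484 UMIs in 35 of 263 dendritic-like cells in old reload and 673 UMIs in 15 of 372 in young reload, a log2 ratio of 3.70 (3.58 to 3.82), and 1 old reload cell held 25.5% of the UMIs. Lpl stood at 135 CPM in old reload and 9.60 CPM in young reload (3.82, 3.37 to 4.30), and Fn1, fibronectin, at 414 and 86.6 CPM (2.26, 2.09 to 2.42). Without the cluster Fn1 stood at 0.16, Lyz1 at 0.13 and Mmp12 at 0.04. The cluster held 151 of 155 Mmp12 UMIs in old reload and 6 of 13 in young reload, so the last value rests on few UMIs. It held 5474 of 5484 Retnla UMIs in old reload and 669 of 673 in young reload. For Lpl it held 363 of 389 and 39 of 44 UMIs. The cell cycle cluster held 26 Lpl UMIs in old reload and 0 in young reload, so Lpl was not higher in the Retnla and Mgl2 cluster alone.

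Within the Retnla and Mgl2 cluster, cytokine genes went both ways, with 9 of 42 measured cytokine and NF-kB genes at least 1.5-fold higher in old reload and 8 lower (median 0.00). Of 2224 genes measured there, 8.63% were at least 1.5-fold higher in old reload and 8.32% at least 1.5-fold lower. Of 10 measured growth factor and repair genes 5 were higher and none lower (median 0.77), Fn1 at 1890.2 CPM in old reload and 623 CPM in young reload (1.602, 1.42 to 1.79) among them. That median was -0.17 at resolution 0.4, where this cluster and the Cd209a and Ccr7 cluster were 1. Tnf stood at 236 CPM in old reload and 91.3 CPM in young reload (1.37, 0.87 to 1.89), and Cxcl10 at 417 and 78.9 CPM (2.40, 1.91 to 2.94). Isg15 had a log2 ratio of 2.10 (1.61 to 2.63), with 36.1% of its old reload UMIs in 1 cell. Cxcl2 stood at 1875 CPM in old reload and 803 CPM in young reload (1.22), and at -0.31 with 0 C1q UMIs allowed. Il1b stood at 1487 CPM in old reload and 2646 CPM in young reload (-0.83, -0.96 to -0.71), and Ccl3 at 33.5 and 80.9 CPM (-1.27, -2.13 to -0.46). Oasl1 had 52 UMIs in 11 cells of old reload and none in young reload, at least 13.98-fold higher against a floor of 3 counts in young reload, a bound that was 0.64 on the log2 scale with cells thinned to 1000 UMIs. Lower in old reload were Cd209a, a C-type lectin (758 and 1803 CPM in old and young reload, -1.25), Cd300a, an inhibitory receptor (-1.31), Odc1, ornithine decarboxylase (-1.24), and Lgmn (-1.19).

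The Cd209a and Ccr7 cluster held less of the genes of maturation and migration in old reload. It had 77 cells in old reload and 142 in young reload, 29.3% and 38.2% of dendritic-like cells. Of 3845 genes measured, 4.45% were at least 1.5-fold higher in old reload and 9.21% at least 1.5-fold lower. Of the genes called, 32.6% were higher with CPM and 46.1% with mitochondrial, ribosomal and haemoglobin genes left out of the total. Of 14 measured maturation genes, 6 were at least 1.5-fold lower and none higher (median -0.40). Ccr7, the receptor that leads dendritic cells to lymph nodes (chromosome 11, 99144196 to 99155077), stood at 398 CPM in old reload and 937 CPM in young reload, with UMIs in 28 of 77 and 66 of 142 cells (-1.24, -1.43 to -1.05). Cd86, which co-stimulates T cells, stood at 93.6 CPM in old reload and 183 CPM in young reload (-0.97, -1.37 to -0.58), and Relb, an NF-kB subunit, at 78.7 and 124 CPM (-0.65, -1.11 to -0.22). Fscn1, the actin bundler fascin, had 6 UMIs in old reload and 156 in young reload, in 2.60% and 2.82% of cells, so its ratio of -3.78 rests on few cells.

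Cytokine and interferon response genes of that cluster were lower as well. Of 47 measured cytokine and NF-kB genes 11 were at least 1.5-fold lower and 1 higher, and of 36 measured interferon response genes 15 were lower and 1 higher (median -0.33). Il1b stood at 2981 CPM in old reload and 4400.4 CPM in young reload (-0.56, -0.63 to -0.49). Irf7 stood at 73.3 CPM in old reload and 164 CPM in young reload (-1.16, -1.62 to -0.73), and Oasl2 at 21.7 and 53.7 CPM (-1.31). Isg15 was at 186 CPM in old reload and 376 CPM in young reload (-1.01), but 33.0% of the young reload UMIs were in 1 cell, and it stood at 0.51 with 0 C1q UMIs allowed and 0.19 at resolution 0.4. Rgs1, a brake on chemokine receptors (48.8 and 199.6 CPM in old and young reload, -2.03), Cd63, a tetraspanin (24.4 and 105 CPM, -2.11), and Ccl5 (-1.92) were among the 6 lowest named genes. Ccl3 (-3.66) and Ccl4 (-1.92) rested on 1 young reload cell and stood at -0.19 and -0.59 without the cell with most UMIs in each library. Among the highest named genes were Pet100, a cytochrome c oxidase chaperone (128 and 57.2 CPM in old and young reload, 1.16), and Bach2, a transcription repressor (1.06).

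Type 1 dendritic-like cells of the Clec9a and Xcr1 cluster, 101 in old reload and 151 in young reload, kept their lineage genes at like levels and differed in single genes. Of 4741 genes measured, 4.43% were at least 1.5-fold higher in old reload and 7.51% at least 1.5-fold lower. Of the genes called, 37.1% were higher with CPM, 50.5% with mitochondrial, ribosomal and haemoglobin genes left out of the total and 3.1% with mean UMIs per cell, where the median of all genes was -0.39 against -0.06 with CPM. Kdm4a, a histone demethylase, stood at 35.2 CPM in old reload and 116 CPM in young reload, with a UMI in 15.8% and 41.7% of cells (-1.72, -2.24 to -1.24). Cat, the hydrogen peroxide enzyme catalase, stood at 28.1 CPM in old reload and 67.6 CPM in young reload, in 24.8% and 55.6% of cells (-1.26, -1.87 to -0.70). Plet1 (22.9 and 64.3 CPM in old and young reload, -1.49), a surface protein linked to migration, Plaur, the urokinase receptor (-1.87, and -0.16 with cells thinned to 1000 UMIs), and Srxn1, which restores oxidised peroxiredoxins (-1.31), were lower too. Higher were Hmgcs1, an enzyme of cholesterol synthesis (100.2 and 39.4 CPM in old and young reload, 1.34, 0.93 to 1.77), Hexim1, an inhibitor of transcription elongation (1.23), and Hspa1b, a heat shock protein (1.15). Of 33 measured cytokine and NF-kB genes 8 were lower and none higher, and of 32 stress and immediate early genes 4 were higher and none lower (median 0.17, and -0.15 with mean UMIs per cell).

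Over all dendritic-like cells, Il1b stood at 1494 CPM in old reload and 2465 CPM in young reload (-0.72, -0.77 to -0.67), and its ratio lay between -0.56 and -1.17 in each of the 4 clusters. Cxcl2 stood at 1.19 with the Retnla and Mgl2 cluster and at -1.69 without it, where 1 young reload cell held 254 of 454 UMIs, and at -1.18 when the cell with most UMIs in each library was left out too. Cxcl10 stood at 1.82 with the cluster and at -0.11 without it, where 1 old reload cell held 37 of 50 UMIs and 1 young reload cell 31 of 97. Fcrls, an Fc receptor-like protein, stood at 1.87 with that cluster and at -1.06 without it (-3.11 to 0.59, on 4 UMIs in old reload and 15 in young reload). Plet1 (-1.87), Fcgr1, the high-affinity IgG receptor (-1.46), and Clec4n, the lectin Dectin-2 (-1.52, and -0.50 with cells thinned to 1000 UMIs), were lower. Macrophage markers summed to 425 CPM in old reload and 479 CPM in young reload in the class, with 17 of 18 seen and Mertk at 0, and monocyte markers to 1668 and 1278 CPM, with 19 of 20 seen. Their part was not tested.

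T-like cells of old reload held less of the genes of activation, and more Cd8b1 and Fos. Of 1189 measured genes, 5.89% were at least 1.5-fold higher in old reload and 15.3% at least 1.5-fold lower. The split depended on the scaling, with 27.8% of called genes higher with CPM, 73.3% with TMM factors, 45.2% with mitochondrial, ribosomal and haemoglobin genes left out of the total and 39.0% with every cell weighted equally, and with a median of all genes of -0.13 with CPM and 0.17 with TMM factors. Of 16 measured activation and checkpoint genes, 8 were at least 1.5-fold lower in old reload and none higher (median -0.62 with CPM, and below 0 under each scaling and alternative run). Tnfrsf4, the co-stimulatory receptor OX40 (chromosome 4, 156013843 to 156016612), stood at 48.3 CPM in old reload and 302 CPM in young reload, with UMIs in 12 of 103 and 19 of 58 cells (-2.64, -3.54 to -1.82). Icos, an inducible co-stimulator, stood at 202 CPM in old reload and 487 CPM in young reload (-1.27, -1.74 to -0.80). Tnfrsf18, the receptor GITR, stood at 121 CPM in old reload and 328 CPM in young reload (-1.44, -2.05 to -0.85), and Pdcd1, the inhibitory receptor PD-1, at 90.6 and 244 CPM (-1.43, -2.14 to -0.73). Tigit, another inhibitory receptor, stood at 81.5 CPM in old reload and 185 CPM in young reload (-1.19). Cd44, a marker of antigen-experienced cells, was level at 190.3 CPM in old reload and 180.1 CPM in young reload, and Cd69, an early activation antigen, stood at 289.9 and 196 CPM (0.57, 0.00 to 1.15).

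Cd4, the co-receptor of helper T cells, had 15 UMIs in 11 of 103 old reload cells and 26 UMIs in 17 of 58 young reload cells (-1.60, -2.63 to -0.63), fewer than the 50 UMIs set for a measured gene. Cd8b1, a chain of the co-receptor of cytotoxic T cells (chromosome 6, 71322788 to 71337494), had 129 UMIs in 37 old reload cells and 35 UMIs in 10 young reload cells (1.07, 0.52 to 1.65), and Cd8a a ratio of 0.55 (-0.32 to 1.48). Whether the ratios of the activation genes differ within CD4 or CD8 cells was not tested, since these counts do not sort single cells. Cytotoxic genes were at or above level, with 3 of 13 measured members higher in old reload and none lower (median 0.23). Ccl5 stood at 7550.5 CPM in old reload and 5222 CPM in young reload (0.53, 0.43 to 0.64) and Nkg7, a granule protein, at 855 and 657 CPM (0.38, 0.07 to 0.70). Gzmb, granzyme B, had 47 UMIs in 17 old reload cells and 13 UMIs in 8 young reload cells (1.04, 0.13 to 2.05), and stood at -0.074 when cells were thinned to 1000 UMIs. Ifng, interferon gamma, had 48 UMIs in 12 old reload cells and 13 UMIs in 5 young reload cells (1.07, 0.17 to 2.08), with 47.9% of its old reload UMIs and 46.1% of its young reload UMIs in 1 cell each.

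**Figure D5:**
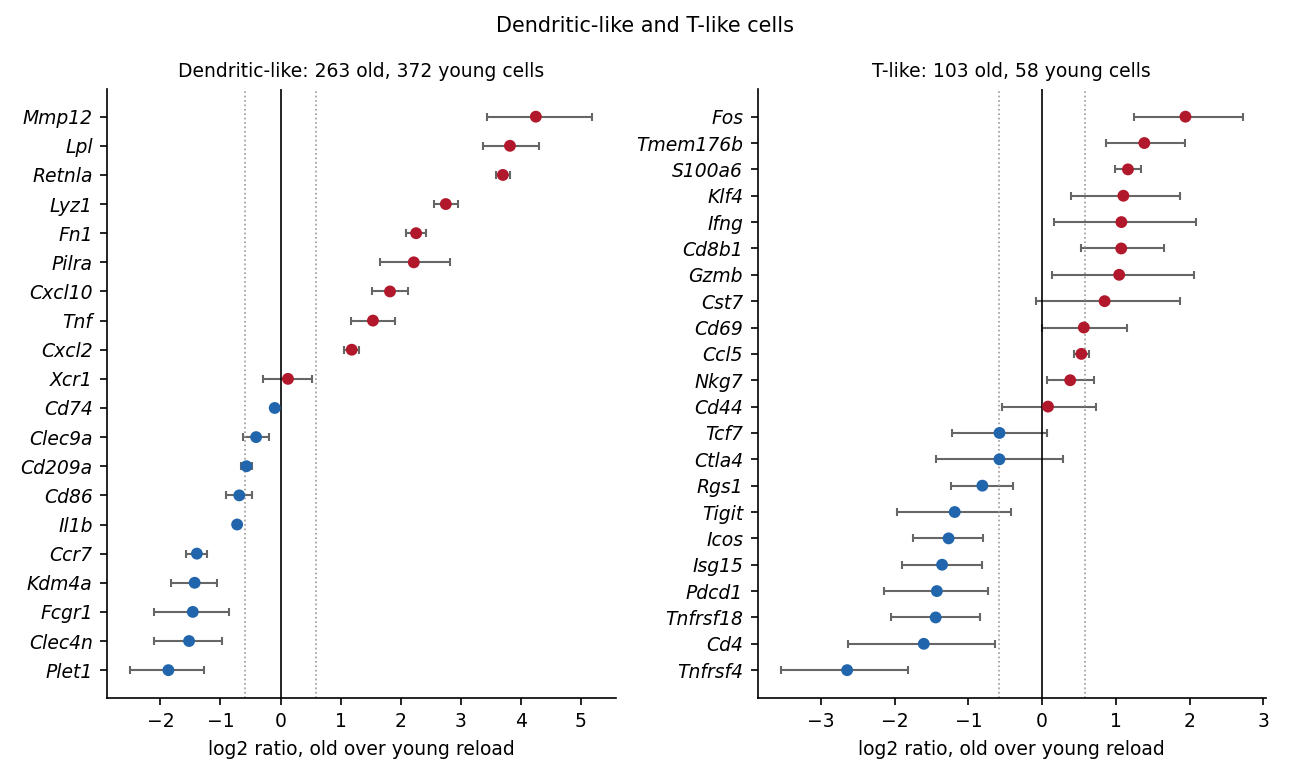
Log2 ratio of old over young reload in dendritic-like cells (left, 263 old and 372 young reload cells) and T-like cells (right, 103 old and 58 young reload cells), with exact 95% intervals that cover counting error only. Red points are above 0 and blue points below, and dotted lines mark 1.5-fold. Lpl lies at 3.82 and Ccr7 at -1.39 on the left, and Fos at 1.94 and Tnfrsf4 at -2.64 on the right.

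Interferon response genes of T-like cells were lower in old reload, with 7 of 10 measured members at least 1.5-fold lower and none higher (median -0.83). Isg15 stood at 151 CPM in old reload and 387 CPM in young reload (-1.36, -1.91 to -0.82), with 35.6% of the young reload UMIs in 1 cell. Slfn2, which keeps T cells quiescent, stood at 166 CPM in old reload and 349.5 CPM in young reload (-1.07, -1.62 to -0.54, and -0.23 with cells thinned to 1000 UMIs). Cdkn1b, the cell cycle inhibitor p27 (60.4 and 180.1 CPM in old and young reload, -1.58), and S1pr1, the receptor by which T cells leave lymph nodes (69.5 and 164 CPM, -1.24), were lower too. Tcf7 (-0.58, -1.22 to 0.07) and Lef1 (0.03, -0.65 to 0.74), transcription factors of naive cells, had intervals that include 0. Tcf7 had a UMI in 29.1% of old reload cells and 48.3% of young reload cells. Fos, an immediate early gene, stood at 387 CPM in old reload and 101 CPM in young reload (1.94, 1.24 to 2.72), and S100a6 at 3724 and 1663 CPM (1.16, 0.98 to 1.35). Bola2 (1.27), an iron-sulfur protein, and Ndufa3 (1.21), a subunit of complex I, were also among the highest, and 5 of 42 measured oxidative phosphorylation genes were higher and 1 lower. Tmem176b (1.39) stood at -0.60 without the Trdc and Il17a cluster, which held 18 T-like cells in old reload and 8 in young reload.

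B-like cells numbered 15 in young reload, under the 30 set for a comparison of levels, and are described only. Cd79a, a chain of the B cell receptor, had 576 UMIs in 73 of 74 cells of old reload and 160 UMIs in 15 of 15 cells of young reload (3402 and 4033 CPM). Ms4a1, the antigen CD20, stood at 372 CPM in old reload and 479 CPM in young reload, and Cd74 at 28614 and 31585 CPM. Ighd, the delta heavy chain of naive cells, stood at 549 CPM in old reload and 529 CPM in young reload. Ighm, the mu heavy chain, had 1627 UMIs in old reload and 49 in young reload, but 79.8% of the old reload UMIs were in 1 cell. That cell also held 73.8% of the Igkc UMIs of old reload and all 128 UMIs of Jchain, the joining chain of secreted antibody, and no Jchain UMI was found in young reload B-like cells.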

How the data were processed

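Single-cell RNA was captured with 10x Genomics 3′ chemistry. The authors aligned reads to mm10 with Cell Ranger 3.1.0 and deposited raw UMI counts per gene and barcode, which were used as deposited, with no normalization before deposit. Barcodes with at least 200 genes and at most 10% mitochondrial UMIs were kept. Doublet scores came from Scrublet (scanpy 1.11.5), and the barcodes that scored highest were taken out, up to an expected rate of 0.8% per 1000 barcodes. Members of both libraries were clustered with Seurat 5.3.0 (2000 variable genes, 30 components, resolution 0.8, seed 1). A cluster was named from at least 3 detected markers, and classes of at least 30 cells in each library were compared.

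UMIs were summed per class and library and given as CPM. Ratios carry exact 95% intervals from the 2 Poisson counts, shares Clopper-Pearson intervals and their differences Newcombe intervals, all for counting error only, and molecules of 1 cell are not independent samples of mice. A count of 0 was set to 3 counts, and the fold then given as a bound. With 1 library a side no p-value was computed, since genes and cells are not replicates. Named genes were the 6 highest and 6 lowest ratios per comparison among genes with at least 100 UMIs over both libraries and a UMI in at least 10% of cells of the library where they were higher, leaving out mitochondrial, ribosomal, haemoglobin, Gm and Rik genes and receptor variable segments, and from each list the 4 members with most UMIs and the highest and lowest ratio. Some genes that this rule named are not reported here. Further genes in the text were chosen after their values were seen. The members, gene lists and markers were chosen with earlier results of these data known.

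Alternatives covered scaling (TMM factors from edgeR 4.0.16 among them), filters, thinning to 1000 UMIs, doublets, C1q limits and clustering. Leaving out single clusters, the cell with most UMIs, both together or the leading genes that differ was chosen after seeing the data. The interval calculations were checked on simulated independent counts. That check cannot show how the intervals behave where UMIs of a gene clump in a few cells. Clustering, cluster names, list counts and filters were not simulated. Python 3.11.15 and R 4.3.3 were used. Gene positions are from GENCODE vM21 on GRCm38, and promoters from RefSeq on GRCm38.p6. The other 4 libraries of the study were not compared here.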

Additional observations from a re-analysis of the deposited data

Results flagged for a closer look

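Cxcl10 was set apart because its ratio took opposite directions in 2 classes, at 1.82 on the log2 scale in dendritic-like cells and -2.33 in monocyte-like cells, a difference of 4.15. Cxcl2 likewise stood at 1.19 in dendritic-like cells and -1.59 in neutrophil-like cells, a difference of 2.78. With 1 library a side neither difference was tested. Both dendritic-like ratios were below 0 without the Retnla and Mgl2 cluster, and the monocyte-like Cxcl10 ratio was 1.33 without the Ifit2 and Rsad2 cluster (-1.52 to 6.79, on 9 UMIs in old reload and 1 in young reload). The latter was -0.87 with the cell with most UMIs in each library left out too, against the floor of 3 counts in young reload.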

How the results depend on the processing

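The differences in share of neutrophil-like, monocyte-like, dendritic-like, T-like and B-like cells kept their signs under the alternatives run for members, but not their sizes, and with cells over the C1q limit counted in the class the monocyte-like difference was -2.38 points of all kept barcodes. With the same members as shares of all kept barcodes the differences were 5.95 points for neutrophil-like, 6.75 for monocyte-like, -4.68 for dendritic-like and 2.49 for B-like cells. The monocyte-like difference was 3.57 points (-0.27 to 7.36) with all kept barcodes clustered together and 9.28 with a gate on each cell, the T-like one 1.70 (-0.595 to 3.95) with the gate and 2.58 (-0.014 to 5.10) with 0 C1q UMIs, and the B-like one 3.31 with at most 5% mitochondrial UMIs. Genes past 1.5-fold with at least 1 UMI, at least 200 UMIs and cells thinned to 1000 UMIs numbered 2195, 44 and 152 in neutrophil-like cells (253 with at least 50 UMIs), 3163, 162 and 185 in monocyte-like cells (748), 2542, 190 and 211 in dendritic-like cells (747) and 2946, 34 and 76 in T-like cells (252), where fewer or more genes and UMIs entered by construction. Without the cell with most UMIs in each library Ifit3 stood at 0.99 in neutrophil-like cells. Without the Ifit2 and Rsad2 cluster the interferon median of monocyte-like cells was 0.38, Cxcl10 1.33 (-1.52 to 6.79, on 9 and 1 UMIs in old and young reload) and Isg15 1.06, or 1.15 without the cell with most Isg15 UMIs in each library as well. With the cell with most Cxcl10 UMIs in each library left out as well, Cxcl10 was -0.87, against the floor of 3 counts in young reload. Without the Retnla and Mgl2 cluster Fcrls was -1.06, Cxcl10 -0.11 and Cxcl2 -1.69 in dendritic-like cells, and -0.15, -1.49 and -1.18 with the cell with most UMIs of that gene in each library left out as well, 1 young reload cell holding 254 of 454 Cxcl2 UMIs, and Cxcl2 was -0.35 there with 0 C1q UMIs. In T-like cells Gzmb was -0.074 thinned and -0.14 with the gate, and Tmem176b -0.60 without the Trdc cluster and -0.97 without its top cells as well. In the Chil3 and F13a1 cluster Ly6i was -0.58 thinned, H2-Aa 0.067 and Cd74 0.056 with all kept barcodes clustered together, and Gbp2 and Isg15 were -0.15 and -1.44 with 0 C1q UMIs and -0.22 and -1.29 at resolution 0.4. In the Cd209a and Ccr7 cluster Isg15 was 0.51 with 0 C1q UMIs, and Cxcl10 1.48 and Isg15 0.19 at resolution 0.4. In the Retnla and Mgl2 cluster Cxcl2 was -0.31 with 0 C1q UMIs and the growth factor median -0.17 at resolution 0.4. Many more values were counted as moved, short of a reversal. With cells thinned to 1000 UMIs these were 68 of 189 log2 ratios and 25 of 43 list medians. With 0 C1q UMIs they were 49 of 190 ratios and 12 of 43 list medians. With mean UMIs per cell they were 16 of 190 ratios and 24 of 43 list medians. The causes were not tested. The gate was not run for single clusters. No paired analysis was possible because each age was 1 pooled library, and for the same reason no library could be left out. Depth limits low genes most in neutrophil-like cells, whose young reload cells held 58602 UMIs in all.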

Other observations

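Classes with few cells are given as levels only. The innate lymphoid-like cluster (22 cells in old reload and 33 in young reload) was led by Il5 and Gata3. Il5, which sustains eosinophils, stood at 1611 CPM in old reload and 719 CPM in young reload, and Csf2, which encodes GM-CSF, at 956 and 200 CPM. Il13, a type 2 cytokine, stood at 400 CPM in old reload and 336 CPM in young reload, and Gata3, the transcription factor of these cells, at 1534 and 1407 CPM.

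The NK-like cluster held 14 cells in old reload and 23 in young reload. Gzma, granzyme A, stood at 8243 CPM in old reload and 4100 CPM in young reload, and Xcl1, the ligand of Xcr1, at 167 and 2070 CPM. The mast- or basophil-like cluster held 3 cells in old reload and 21 in young reload, with the mast cell protease Mcpt4 at 56809 CPM in old reload and 69578 CPM in young reload.

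In the macrophage-like cells left under the C1q limit (107 in old reload and 185 in young reload), Il10, an anti-inflammatory cytokine, stood at 117 CPM in old reload and 68.5 CPM in young reload, Spp1, osteopontin, at 94.2 and 158 CPM, and Cd74 at 33649 and 25767 CPM.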
